A study of Mus musculus with 2 samples.

Results

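The genes described here are Trp53, which encodes the transcription factor p53, its regulators Mdm2 and Mdm4, and the p53 target genes Ccng1, Bbc3, Pmaip1, Bax, Sesn2, Zmat3 and Gadd45a. They were chosen by name, and every array probe whose transcript identifier matched them was used, which gave 11 probes for these 10 genes, out of 21360 genes that could be named on the arrays. Expression was measured in LSK cells, the Lineage-, Sca-1+, c-kit+ fraction of bone marrow, in which blood stem cells and their first progeny are found. One array held RNA from nondiabetic female C57BL/6J mice and 1 array held RNA from female C57BL/6J mice made diabetic with streptozotocin (STZ), with RNA of 3 mice behind each array and 8.3 ng of it used for amplification. Both groups are otherwise labelled alike. The sex is that of the labels, whereas the study's text describes its STZ mice as male. The labels of the arrays state no age, dose or interval after STZ, and the study's methods describe STZ given into the tail vein with citrate buffer for control mice. With 1 array for each condition no difference has a replicate check, none was tested, and all comparisons below describe these 2 arrays.

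p53 is held low in unstressed cells by Mdm2, a ubiquitin ligase that marks it for destruction, and by the related protein Mdm4, which binds p53 and blocks its activity. DNA damage releases p53, which then switches on genes for cell cycle arrest, DNA repair, metabolic control and cell death, and Mdm2 itself, so that the response feeds back on its source. In blood stem cells p53 is known for keeping cells quiescent and for removing cells with damaged DNA, and STZ is a DNA-alkylating agent.

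The DNA element that p53 recognizes is a pair of half-sites, each a run of purines, then C, a pair of A or T bases, G, and a run of pyrimidines. The promoter windows of RefSeq (build GRCm38.p6, 250 bases before to 50 bases after each transcription start) were searched for this half-site, which reads the same on both strands. Windows matched 8 of the 10 genes, all but Pmaip1 and Zmat3. A half-site lay in a window of 5 of these 8 genes, against 2582 of 27025 genes in the whole table (9.55%), and the 3 windows of Bbc3, the 2 of Mdm4 and the 1 of Sesn2 held no match. A match is a description of the letters and not a measured binding site. DNA outside these windows was not searched, so the matches need not be the elements through which p53 acts on these genes. None of the 11 windows of these 8 genes held a full pair, with the half-sites at most 13 bases apart. The matched stretches therefore each hold 1 half-site, and they are shown so that it can be seen beside the expression. They are printed 5′ to 3′ on the strand of the gene, with the half-site in capitals.
Trp53, chr11:69580269-69580308, plus strand: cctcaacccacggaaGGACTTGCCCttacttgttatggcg
Mdm2, chr10:117710920-117710959, minus strand: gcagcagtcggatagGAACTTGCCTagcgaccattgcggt
Ccng1, chr11:40755447-40755486, minus strand: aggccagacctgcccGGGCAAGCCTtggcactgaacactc
Bax, chr7:45467075-45467114, minus strand: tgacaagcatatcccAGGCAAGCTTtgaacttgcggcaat
Gadd45a, chr6:67037423-67037462, minus strand: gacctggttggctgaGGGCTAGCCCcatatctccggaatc

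The array values are processed intensities in arbitrary units, corrected for background within each array by the scanner software. They are printed unscaled, whereas every log2 ratio is diabetic over nondiabetic after division of each array by its 75th percentile, 168 on the nondiabetic and 182 on the diabetic array. By the software's flag, 62.7% and 63.9% of non-control spots were well above background, and the dimmest such probe had an intensity of 10.2 and 10.1. The scanner software also gives an error for each spot, and carried into the log2 ratio it came to between 0.20 and 0.21 for the members except the dim probes of Pmaip1 and Zmat3. Between repeated spots of 1 probe, the log2 ratio had a median SD of 0.13 over 237 probes printed at least 5 times, and with all measured probes split by brightness into 3 equal classes it was 0.25 in the dimmest, 0.13 in the middle and 0.07 in the brightest class. Both errors cover the array measurement and leave out differences between mice, cell sorts and RNA amplifications. In such bulk samples, fewer cells of a type and less RNA per cell cannot be told apart.

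Of the 10 genes, 9 were well above background on both arrays and Zmat3 on neither. Among the 9, Pmaip1 was higher in diabetic LSK cells by 2-fold or more, Bbc3 was lower by 2-fold or more, and the other 7 differed by less. Over all 15192 genes with a ratio or bound, by their brightest probe, 11.0% passed 2-fold upwards and 10.1% downwards, so that 1 of 9 each way lay near the background. Counted by probe, 1 of the 10 measured probes passed 2-fold in each direction, where 11.2% of all probes did so upwards and 11.2% downwards. The median log2 ratio of the 9 genes was 0.14, against 0.02 over all genes, with 5 genes above 0 and 4 below. The pathway genes did not share a direction.

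**Figure D1:**
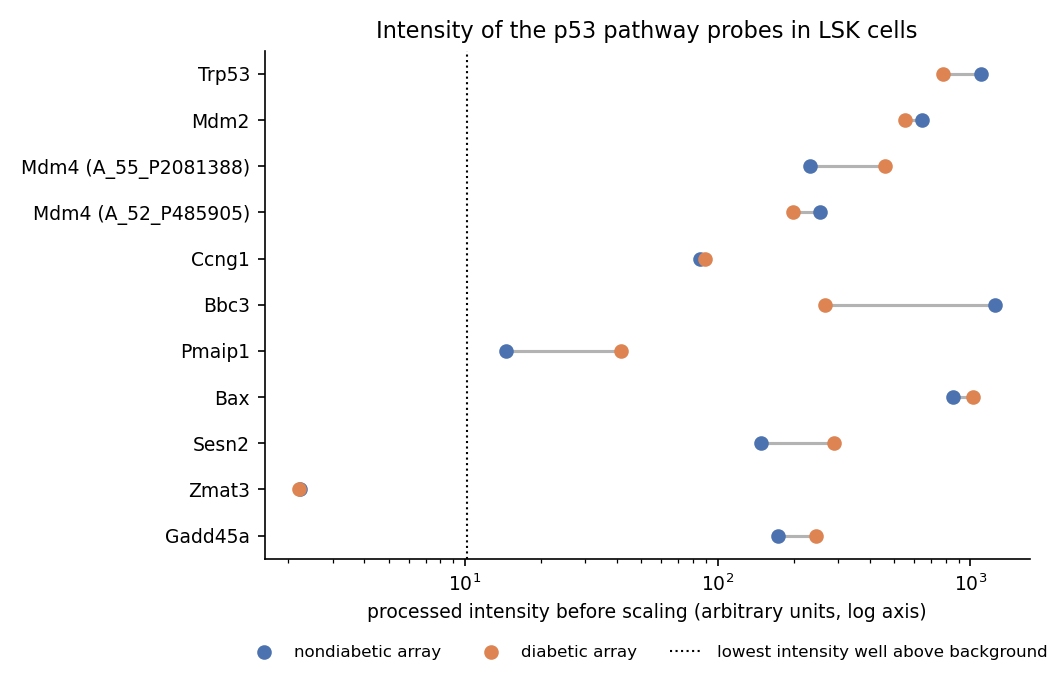
Processed intensity (log axis, before scaling) of each of the 11 probes on the nondiabetic and the diabetic array, joined by a line, with the lowest intensity well above background dotted. Bbc3 goes from 1253 to 267, Pmaip1 from 14.6 to 41.4, and Zmat3 lies left of the dotted line on both arrays.

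Trp53 itself was bright on both arrays and lower on the diabetic one. Its probe (A_55_P1968068) was printed on 2 spots, with intensities of 1133 and 1079 in nondiabetic mice and 752 and 814 in diabetic mice. The spots repeat the measurement within each array and are not replicates of the condition. The 2 spots gave log2 ratios of -0.71 and -0.52, with a mean of -0.62, which is 1.53-fold lower. This difference was larger than the spot SD of 0.13 and the software error of 0.20. Among genes of the brightest class, 9.33% were at least as far below 0. The level of Trp53 RNA does not measure p53 protein, whose amount is set largely by its turnover.

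Mdm2, the ubiquitin ligase that is both regulator and target of p53, showed an intensity of 644 in nondiabetic mice and 549.7 in diabetic mice. Its log2 ratio was -0.35, with a software error of 0.20, and 18.1% of genes of the brightest class lay at least as far below 0.

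Mdm4, the inhibitory partner of Mdm2, was measured by 2 probes for the same transcript, and they went opposite ways. Probe A_55_P2081388 showed an intensity of 233 in nondiabetic mice and 459 in diabetic mice, and its log2 ratio was 0.86. Probe A_52_P485905 had 254 and 199, a log2 ratio of -0.47. Their ratios thus differed by 1.33 on the log2 scale, against a software error of 0.20 on each, and their mean was 0.20. Disagreement of this kind was common on these arrays. In 2816 transcripts, 2 or more probes could be measured on both arrays, and the brightest and the next of them differed by a median of 0.54 in log2 ratio, had opposite signs in 44.0% and differed by at least as much as those of Mdm4 in 20.8%. The other members measured rested on 1 probe each, so their ratios could not be checked in this way.

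**Figure D2:**
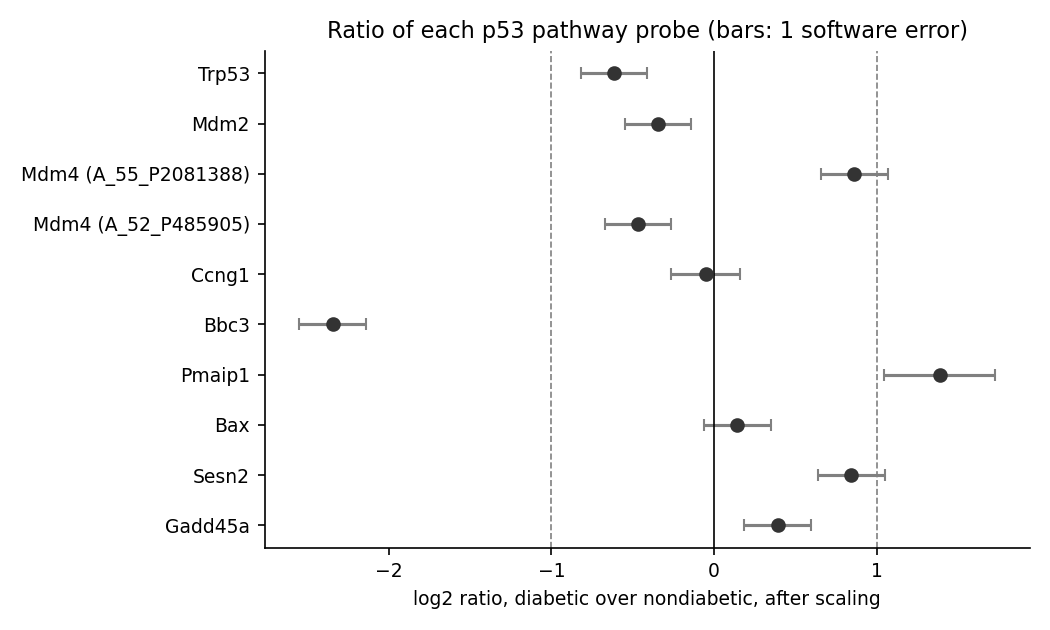
Log2 ratio of diabetic over nondiabetic LSK cells for the 10 probes measured on both arrays, with bars of 1 software error and dashed lines at 2-fold. Only Bbc3 (-2.35) and Pmaip1 (1.39) lie past 2-fold, and the probes of Mdm4 lie on opposite sides of 0.

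Among the target genes of cell death, Bbc3 was lower, Pmaip1 was higher and Bax was nearly level on the diabetic array. Bbc3 encodes PUMA, a BH3-only protein that neutralizes the survival proteins of the BCL2 family. Its probe (A_51_P248122) showed an intensity of 1253 in nondiabetic mice and 267 in diabetic mice, which is a log2 ratio of -2.35 or 5.08-fold lower, with a software error of 0.20. Both intensities were far above background. Of the 5221 genes of the brightest class with a ratio or bound, 10 were at least as far below 0 (0.192%), and of all genes 1.66%.

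Pmaip1 encodes NOXA, another BH3-only protein, which acts mainly against MCL1. Its probe (A_51_P477121) showed an intensity of 14.6 in nondiabetic mice and 41.4 in diabetic mice, which is a log2 ratio of 1.39 or 2.62-fold higher. The first of these values was close to the dimmest level called well above background, and the software error of the ratio was 0.34. Among genes of the dimmest class, 10.4% were at least as far above 0. With the background corrected by normexp and an offset of 50, the log2 ratio was 0.30 and no longer past 2-fold.

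Bax, the protein that forms pores in the mitochondrial membrane once BH3-only proteins have acted, showed an intensity of 854 in nondiabetic mice and 1024 in diabetic mice. Its log2 ratio of 0.14 was smaller than the software error of 0.20.

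Of the 4 remaining target genes among the 10, Sesn2, Gadd45a and Ccng1 differed by less than 2-fold and Zmat3 could not be measured. Sesn2 encodes sestrin 2, which restrains mTORC1 signalling, and showed an intensity of 149 in nondiabetic mice and 290.0 in diabetic mice, with a log2 ratio of 0.84 (1.80-fold higher). Gadd45a, a DNA damage-inducible gene of growth arrest, had 173 and 246, a log2 ratio of 0.39. Of the genes of the middle class, 16.7% lay at least as far above 0 as Sesn2 and 30.4% as Gadd45a. Ccng1, which encodes cyclin G1 and is a well known p53 target, had 85.1 and 89.2, a log2 ratio of -0.05 that turned to 0.041 under normexp and stayed within the software error of 0.21. Zmat3 encodes an RNA-binding zinc finger protein. Its probe (A_51_P415220) had an intensity of 2.23 on the nondiabetic and 2.21 on the diabetic array, was not well above background on either, and has no ratio.

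**Figure D3:**
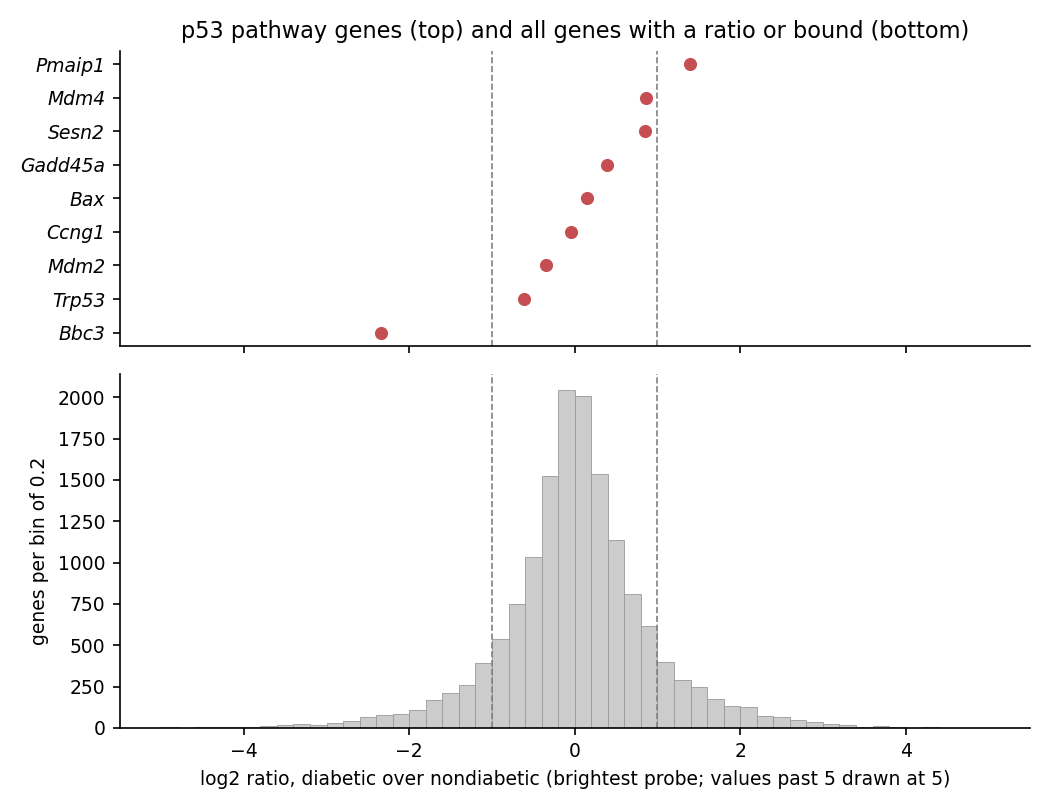
Top, log2 ratio (diabetic over nondiabetic, brightest probe) of the 9 genes measured on both arrays. Bottom, the number of all 15192 genes with a ratio or bound in bins of the same axis, with dashed lines at 2-fold; 7 of the 9 genes lie between the dashed lines, where most genes are.

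Other genes of the p53 pathway were read from a list of 70, with 40 further target genes and 30 further regulators and partners. Of these, 69 had a named probe and 61 a ratio or bound, of which 8 passed 2-fold upwards in diabetic LSK cells (13.1%), 5 downwards (8.20%) and 48 neither way. These shares lay near the 11.0% and 10.1% of all genes, and the median log2 ratio was 0.02, as over all genes. Under normexp the counts were 3 upwards and 3 downwards. Among the target genes 7 of 33 passed 2-fold upwards (21.2%) and 2 downwards (6.06%), with a median of 0.12. Among the regulators 1 of 28 passed it upwards (3.57%) and 3 downwards (10.7%), with a median of -0.10. None of these shares has a replicate check, and the genes past 2-fold are given as values of these arrays.

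The target gene with the largest ratio was Phlda3, whose product restrains AKT signalling. Its probe (A_51_P329928) was not well above background in nondiabetic LSK cells, at 2.32, and had an intensity of 154 in diabetic LSK cells, at least 13.9-fold higher. This bound takes the lowest intensity well above background in place of the dim value. From the nondiabetic to the diabetic array, Ercc5, an endonuclease of nucleotide excision repair, went from 39.5 to 135 (log2 ratio 1.66), and Apaf1, the core of the apoptosome, from 22.8 to 67.0 (1.44). Plk2, a kinase induced by p53, went from 72.3 to 199 (1.34), and Ccng2, a relative of Ccng1, from 223 to 534 (1.14). Ppm1d, which encodes WIP1, the phosphatase that shuts off p53 signalling, went from 82.3 to 202 (1.18).

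Of the 33 target genes 15 had a ratio below 0, and those at least 2-fold lower were Psrc1, a spindle protein gene, which went from 131 to 25.3 (log2 ratio -2.49), and Polk, a translesion DNA polymerase, which went from 2357 to 894 by its brightest probe (-1.52). Among the regulators, Prkdc, the catalytic subunit of the DNA-dependent protein kinase, was measured on 9 spots and went from 68.3 to 13.6 (-2.44), with a spot SD of 0.18. Its diabetic value was close to the dimmest level called well above background, and the software error of the ratio was 0.32. Mtbp, a binding partner of MDM2, went from 1168 to 535 (-1.24), and Hipk2, a kinase that phosphorylates p53, from 294 to 150.3 (-1.09). Usp7, which removes ubiquitin from p53 and MDM2, went from 1133 to 2560 (1.06).

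Of these 13 genes, 4 had further probes, and for 3 a further probe went the other way. The probes of Cd82, a tetraspanin gene, gave log2 ratios of 2.21, 0.97 and -1.96. The second probe of Polk gave 0.73 and that of Usp7 -1.09. The second probe of Hipk2 gave -0.37, on the same side as the first.

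Cdkn1a, the p21 gene through which p53 arrests the cell cycle, was dim. Its probe A_51_P363947, on 9 spots, had an intensity of 7.50 in nondiabetic LSK cells, not well above background, and 15.9 in diabetic LSK cells, at least 1.44-fold higher, while the log2 ratio of its spots had an SD of 0.66. Its second probe stayed near background in both. One promoter window of Cdkn1a held a pair of exact half-site matches at most 13 bases apart, which 24 of 32851 windows did (0.0731%). It is shown because Cdkn1a is the best known p53 target. Only exact matches are in capitals. The bases directly after the later match, tgacatgttc, differ from the half-site only at their first base, t in place of a purine. Which of these stretches p53 binds was not tested.
Cdkn1a, chr17:29090891-29090952, plus strand: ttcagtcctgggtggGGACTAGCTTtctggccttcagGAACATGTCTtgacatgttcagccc

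Cdkn2a, which encodes the MDM2 inhibitor ARF, was not well above background with either of its 2 probes on either array. Among the p53 relatives, Trp63 had an intensity of 18994 and 19134 on probe A_55_P2161055 (log2 ratio -0.11), whereas its other probe, at 2.20 and 2.15, was not well above background. Trp73 had 507 and 381 on its brightest probe (-0.53), and its other probes were well above background on 1 array at most.

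**Figure D4:**
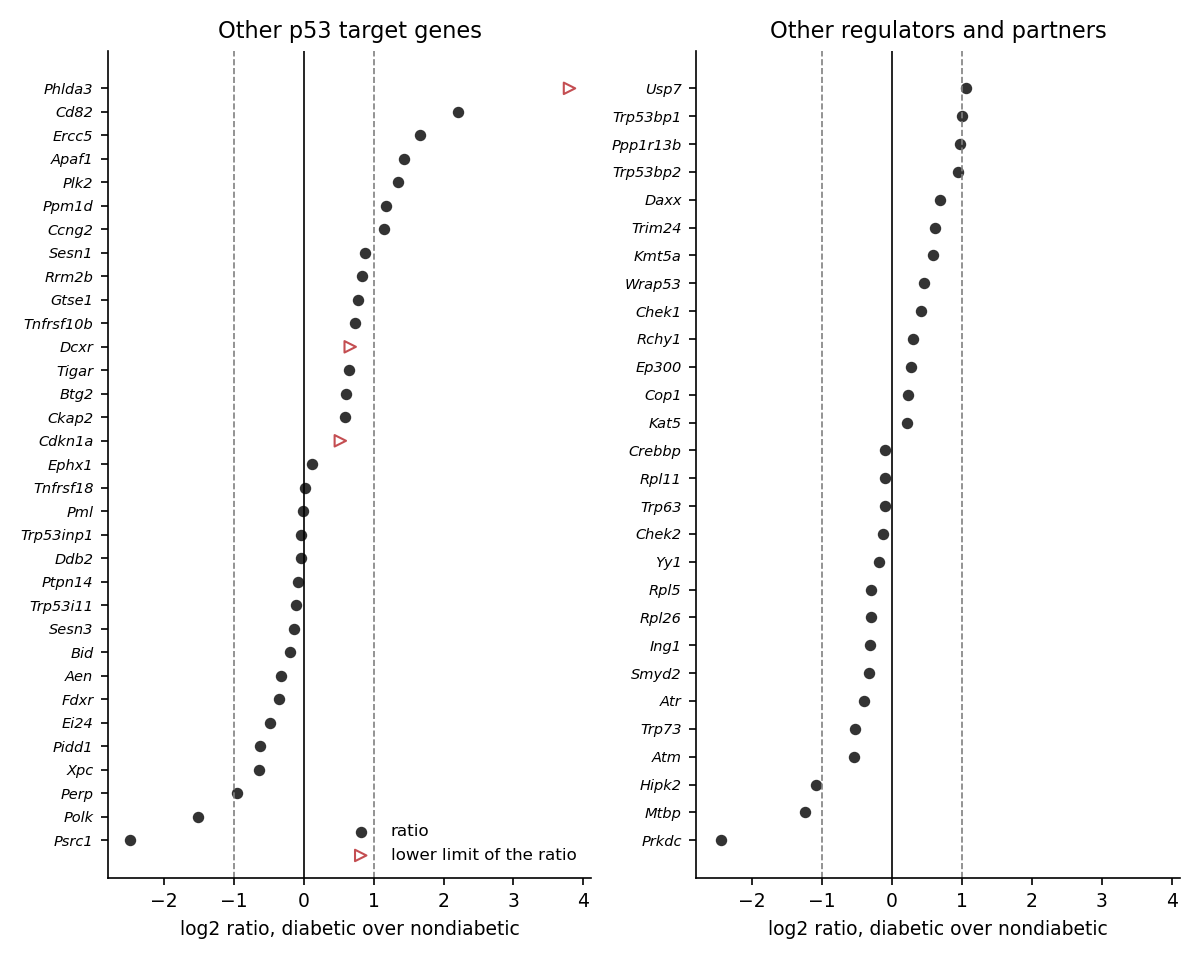
Log2 ratio (diabetic over nondiabetic, brightest probe) of the 33 other p53 target genes and 28 other regulators and partners with a ratio or bound; open triangles are lower limits and dashed lines mark 2-fold. Phlda3 lies at a limit of 3.80 and Psrc1 at -2.49, and most genes lie between the dashed lines.

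The genes of the LSK gate were well above background on both arrays, with log2 ratios of -0.09 for Kit and 0.44 for Ly6a (Sca-1), and all 10 stem and multipotent progenitor markers had a ratio or bound. Of these 10, Slamf1 was at least 2.59-fold higher and Mecom 2.30-fold lower on the diabetic array, and the other 8 differed by less than 2-fold. Of 37 markers of other blood lineages, stroma and endothelium, 29 had a ratio or bound, 4 of them past 2-fold upwards (13.8%) and 4 downwards (13.8%), beside 11.0% and 10.1% of all genes. The 36 on the arrays had a summed intensity, before scaling, of 18073 on the nondiabetic and 19759 on the diabetic array. The diabetic array was brighter as a whole, with a 75th percentile of 182 against 168. By their brightest probes, Ms4a1, Cd8a, Ltf, Col1a1 and Cdh5 were not well above background on either array. Other markers of these lineages were bright, with intensities of 5003 and 4284 for Csf1r, 3291 and 2583 for Nkg7, and 2731 and 1851 for Mpo. Pecam1 was 5.32-fold and Cd79a 2.85-fold higher on the diabetic array, where S100a8 was 2.78-fold and Col1a2 2.10-fold lower and Cd3d and Cd3g were each at least 2.74-fold lower. Their lists did not move as a whole by such sizes, with log2 ratios of -0.39 for Cd79b, 0.10 for S100a9, -0.38 for Cd3e and -0.11 for Kdr. Ratios above and below 0 numbered 4 and 1 for B cells and 2 and 6 for granulocytes and monocytes. They numbered 1 and 4 for T and NK cells, and 1 and 4 for stroma and endothelium. The erythroid list had a summed intensity, before scaling, of 2652 and 5775, with Hba-a1 and Hbb-b1 each past 2-fold upwards. Its ratios lay 3 above and 3 below 0. The part of cells of these lineages in the p53 results was not tested.

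Under 9 processing alternatives, Bbc3 remained past 2-fold in each, with log2 ratios from -2.38 to -2.08, and Pmaip1 in all but normexp. Trp53 lay between -0.65 and -0.59 and Sesn2 between 0.60 and 0.87. Mdm4 ranged from 0.20 with its probes averaged to 0.88.

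**Figure D5:**
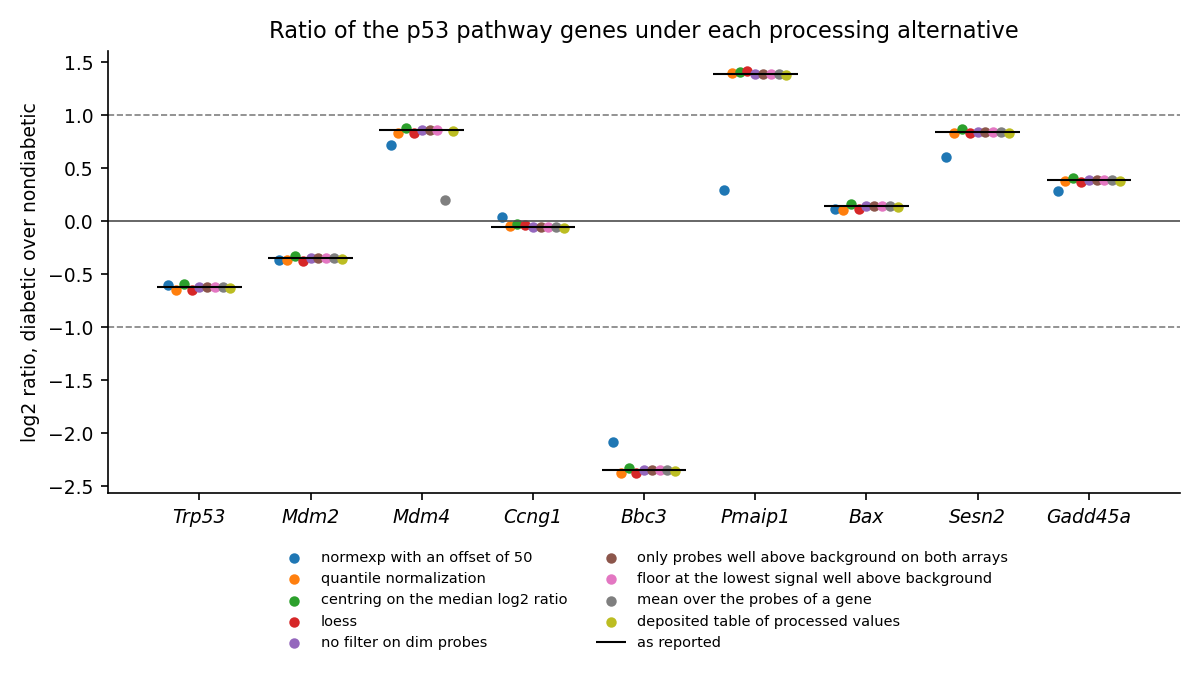
Log2 ratio (diabetic over nondiabetic) of the 9 measured genes as reported (black lines) and under 9 processing alternatives (points), with dashed lines at 2-fold. The points of normexp for Pmaip1 (0.30) and of the averaged probes for Mdm4 (0.20) lie apart from the others.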

How the data were processed

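RNA of LSK cells, sorted after density centrifugation and dead cell removal, was amplified, labelled with Cy3 and hybridized to 2 Agilent 1-colour arrays. The authors deposited, per array, a scanner file written by Agilent Feature Extraction 11.5.1.1. Its processed intensities had been corrected for background within the array. The authors also deposited a table whose intensities equal these times 1 constant per array. The normalization of that table is not given in the sources used here. The array grid refers to mm9 and no coordinates from it were used.

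Each array was divided by the 75th percentile of its non-control spots before log2 was taken. Spots that the software flagged as outliers (non-uniform or population) in 1 or both files were dropped, and no spot was saturated. Spots of a probe were averaged. Where 1 array alone was well above background, the probe was given a bound against the lowest intensity well above background on the other, and a probe dim on both has no ratio. Probes were named through transcript identifiers in a RefSeq table of assembly GRCm38.p6 (28319 of 55661 probes), Setd8 being listed there as Kmt5a. The brightest probe, judged by mean log2 intensity, was taken for each gene. The 3 classes of brightness were set on probes well above background on both arrays.

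No test was made, since each condition has 1 array; that number limits the precision. The members, the pathway list and the marker lists were chosen with earlier results of these data known. Genes outside the 10 members were named when they were listed and past 2-fold, with Cdkn1a, Cdkn2a, Trp63 and Trp73 named whatever their values, and Kit and Ly6a; the other markers named were chosen after their values were seen. Alternatives were normexp (offset 50, on median signals, since mean signals are not used here), quantile normalization, centring on the median ratio, loess, no filter on dim probes, only probes measured on both arrays, a floor, the mean over probes and the deposited table. The code was run on a simulated diabetic array, made from the nondiabetic one with large differences added to some of the brighter probes. That run checked the code alone and not how far noise can move a ratio on these arrays. Python 3.11.15 with numpy 2.4.6 and pandas 2.3.3, and R 4.3.3 with limma 3.58.1, were used.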

Additional observations from a re-analysis of the deposited data

How the results depend on the processing

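Of 61 recomputed counts and medians of the p53 genes, 57 stayed close to the value reported (a count within 1.5 times, a median within the spot SD). The 4 that moved were under normexp, which changed the background model, the offset and the signals used together, so that the cause was not tested: members at least 2-fold higher went from 1 to 0, by gene and by probe, and other pathway genes at least 2-fold higher went from 8 to 3 and those lower from 5 to 3. Over all genes, normexp took the counts from 1667 and 1538 to 597 and 497. The log2 ratio of Ccng1 reversed to 0.041 under normexp. The median over all genes reversed to -0.094 with no filter on dim probes and to -0.14 with the floor, where dim probes count; the cause was not tested. The median of the members ranged from 0.05 to 0.17. No replicate could be left out. No paired analysis was possible because a replicate block over only 2 arrays would leave nothing to estimate the spread from. Signal over background limits Zmat3 and Pmaip1 among the members, and Cdkn1a, Cdkn2a and the other 7 pathway genes with no ratio. Among the pathway genes past 2-fold it also limits Phlda3, which has a bound, and Prkdc, Psrc1 and Apaf1, whose probes lay in the dimmest class.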
